A study of Rattus norvegicus with 4 samples.

Results

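Tall serum CD44 peaks without a starved counterpart are described here. They are peaks of a CD44 chromatin immunoprecipitation (ChIP-seq) in rat nucleus pulposus cells, which form the soft core of the intervertebral disc. A peak was a member when it lay on chromosomes 1 to 20 of the serum list, had a pileup of at least 15, was shorter than 1000 bp and overlapped no peak of the starved list by 1 bp or more. This held for 1568 of 258987 serum peaks on these chromosomes, and the whole serum list has 289279 peaks. The pileup is the number of sequenced fragments stacked at a peak's highest point. Members were thus chosen by pileup, length and overlap, and these values are given as a description with no test.

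The series has 4 libraries. The serum group was cultured with 10% fetal bovine serum and the starved group with 0.1%. Both groups have 1 library precipitated with a CD44 antibody and 1 input library of unprecipitated DNA. The rat strain, the age of the animals, the origin of the cells and the duration of starvation were not given in the sources used here. Since neither precipitation was repeated, nothing here carries a replicate error or a p-value between conditions, and all differences are between single libraries. The peak lists hold no expression values, so the labelled cell type could not be checked against marker genes.

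CD44 is a cell-surface receptor for hyaluronan, a large sugar polymer of the matrix around disc cells. Cleavage within the membrane releases its intracellular part, which can enter the nucleus and has been described to take part in transcription. Serum withdrawal is a common way to make cultured cells leave the cell cycle.

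Height and fold enrichment must be read against the local background, the number of fragments the peak caller took as normal at that place. It was computed from each peak's deposited pileup and fold enrichment and is given as a multiple of the lowest value in its list. That lowest value was 1.502 fragments for serum and 0.0996 for starved cells, so that it was 15.1 times as high in the serum list. The median pileups of the lists, 7 and 2 fragments, differed less. The ratio of 15.1 is taken here as the difference in depth as the peak caller used it, and read totals were not used. The label of these peaks as lost on starvation is therefore not taken up, and they are called unshared. Tall serum peaks of the same limits that overlapped a starved peak are called shared, and there were 7829 of them.

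Being unshared was the common state of serum peaks and the rarer one among tall ones. Of all serum peaks on chromosomes 1 to 20, 84.7% overlapped no starved peak. Among the 9397 tall peaks under 1000 bp the share was 16.7% (exact 95% binomial interval 15.9 to 17.5), a count that the rule itself fixes. All intervals are for counting error alone, and peaks next to each other are not independent. The unshared share fell with height up to a pileup of about 20 and showed no further fall above it. It was 90.6% at a pileup of 4 to 7, 83.6% at 8 to 11 and 39.0% at 12 to 14. Above the limit it was 19.3% at 15 to 19, 13.9% at 20 to 29, 14.8% at 30 to 49, 18.5% at 50 to 99 and 16.8% at 100 or more. The highest peaks of the serum list were thus unshared about as often as those just above the limit, and the intervals of the classes 30 to 49, 50 to 99 and 100 or more overlapped.

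**Figure D1:**
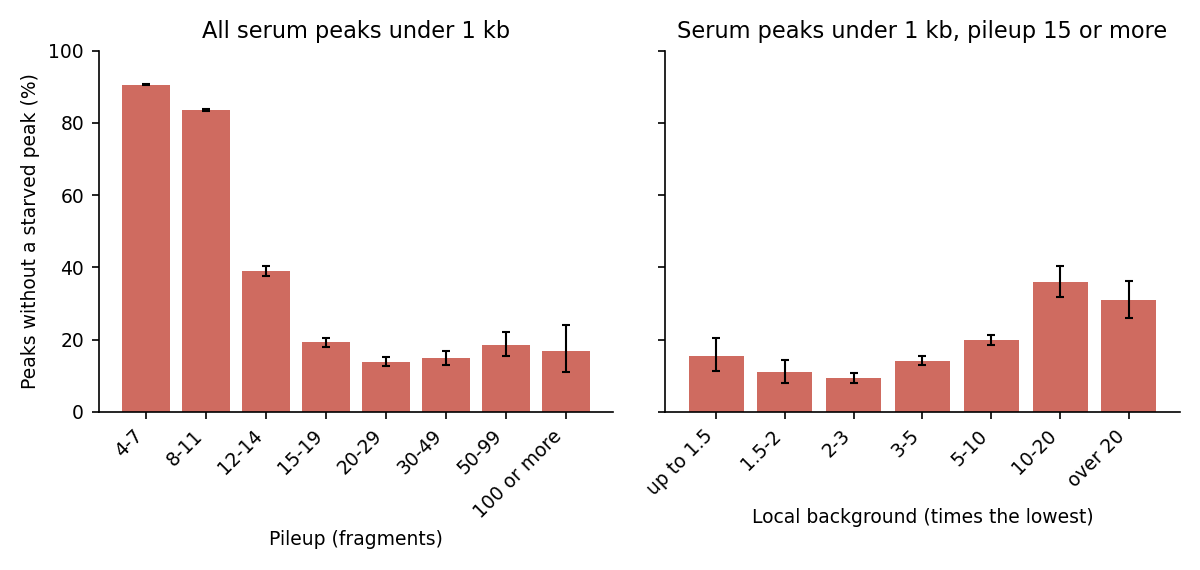
Percent of serum peaks under 1 kb that overlap no starved peak, by pileup (left, all heights) and by local background (right, pileup of 15 or more). Bars are shares and whiskers exact 95% binomial intervals. The share drops from 90.6% to 13.9% with height, and among tall peaks it is lowest, 9.25%, at a background of 2 to 3 times the lowest and highest, 35.9%, at 10 to 20 times.

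Most members were modest rises over a raised background. Their pileup had a median of 19 (quartiles 16 and 27, range 15 to 251), and that of the shared tall peaks was 21 (quartiles 17 and 28). Their fold enrichment had a median of 2.34 (quartiles 1.94 and 2.94), against 3.11 (quartiles 2.41 and 4.11) for the shared peaks. Members thus had a lower fold enrichment than shared peaks, whose median pileup was close to theirs. Peaks were not matched by height. The median local background was 5.32 times the lowest in members (quartiles 3.64 and 8.33) and 4.04 times in shared peaks (quartiles 2.90 and 5.79). A raised background, meaning more than 2 times the lowest, held for 1481 members (94.5%) and for 92.3% of shared tall peaks, and over all serum peaks of these chromosomes for 9.33%. The limit on pileup favours places of high background, so the large step lies between tall and other peaks and not between members and shared peaks. A background above 10 times the lowest separated them more, with 283 members (18.0%, interval 16.2 to 20.04) and 7.03% of shared peaks (interval 6.47 to 7.61).

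Statistical strength within the serum list was greater in shared tall peaks than in members. A q of at most 0.05 was reached by 896 members (57.1%, interval 54.7 to 59.6), by 80.2% of shared tall peaks and by 19.6% of all serum peaks on these chromosomes. A −log10 q of at least 5 was reached by 164 members (10.5%) and by 31.0% of shared peaks. The unshared share fell as q became smaller. For a q above 0.05 it was 30.3%. By classes of −log10 q it was 11.3% (between 3 and 5), 8.57% (between 5 and 10), 2.26% (between 10 and 20) and 2.02% (20 or more). Peak length hardly separated the classes. Members had a median length of 404 bp (quartiles 322 and 542) and shared peaks 410 bp (quartiles 326 and 563), and 4.91% of members, 3.33% of shared peaks and 25.03% of all serum peaks were at the shortest length of the list or 1 bp above it.

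**Figure D2:**
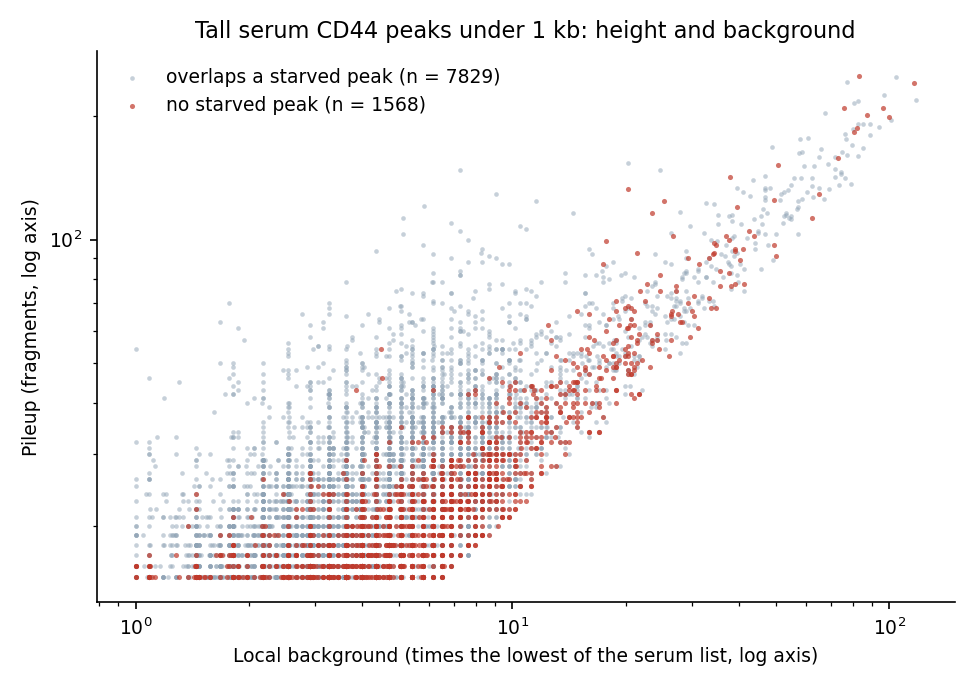
Pileup (fragments, log axis) against local background (times the lowest of the serum list, log axis) for the 9397 tall serum peaks under 1 kb. Each point is a peak, red for the 1568 members and grey for the 7829 shared ones. Members lie mostly along the lower edge of the cloud, where height is small for the background.

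The unshared share differed with the background and was lowest at moderate values. It was 15.5% for the 265 tall peaks whose background was at most 1.5 times the lowest (41 members, interval 11.3 to 20.4). From there it went to 10.9% at 1.5 to 2 times and 9.25% at 2 to 3 times. It rose to 14.1% at 3 to 5 times, 19.9% at 5 to 10 times and 35.9% at 10 to 20 times (180 of 501, interval 31.7 to 40.3), and was 31.0% above 20 times (103 of 332). These shares are descriptions, since the limit on pileup bears on the background of every tall peak.

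The 15 tallest members all lay on a background above 20 times the lowest, and 12 of the 15 had a fold enrichment under 2. The tallest was on chromosome 3 from 133567282 to 133567600, with a pileup of 251 on a background 83.3 times the lowest and a fold enrichment of 1.999. Its neighbours from 133566275 to 133567077 and from 133564204 to 133564910 had pileups of 241 and 199. These 3 peaks stood within 4 kb of each other on backgrounds of 83.3 to 116 times the lowest, yet the nearest starved peak, 4158 bp away from the closest of them, had a pileup of 3 on a background only 2.28 times the lowest of its own list. The stretch of 49.7 kb that holds them had 6 tall serum peaks, all unshared, and 13 starved peaks with a pileup of at most 5.

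Other tall members had starved peaks of raised background close by. A member on chromosome 2 from 160692257 to 160692738 had a pileup of 210, and a starved peak of 9 fragments at 15.9 times the lowest lay 564 bp away. On chromosome 1 from 181973154 to 181973627 the pileup was also 210, and the nearest starved peak was 75 bp away with 5 fragments. A member on chromosome 1 from 55705055 to 55705357 (pileup 158) had the strongest starved neighbour of the 15, with 39 fragments at 83.4 times the lowest, 637 bp away. It was the exception among the 15, since for the other 14 the neighbouring starved peak had a lower multiple of background than the member. Picking the 15 by serum height favours high serum backgrounds, and shared peaks of like height were not counted. Nothing is read from the 14. In 8 of the 15 the starved peak lay within 1 kb.

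On chromosome 14 from 46531738 to 46622468, 10 of 19 tall serum peaks were members. Their pileups ran from 28 to 142 with a median of 98.5. The peak from 46535443 to 46535880 reached a pileup of 124, a fold enrichment of 3.20 and a −log10 q of 23.2, and that from 46537582 to 46537911 a pileup of 116, a fold enrichment of 3.22 and a −log10 q of 21.8. Both shared their nearest starved peak, of 8 fragments, at distances of 2148 and 117 bp. Another strong one, from 46550046 to 46550320, had a pileup of 142 and a −log10 q of 16.7, with a starved peak of 16 fragments 183 bp away. The starved list was not empty here. It held 26 peaks in the same 90.7 kb, or 287 per Mb against 145 per Mb over chromosomes 1 to 20.

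**Figure D3:**
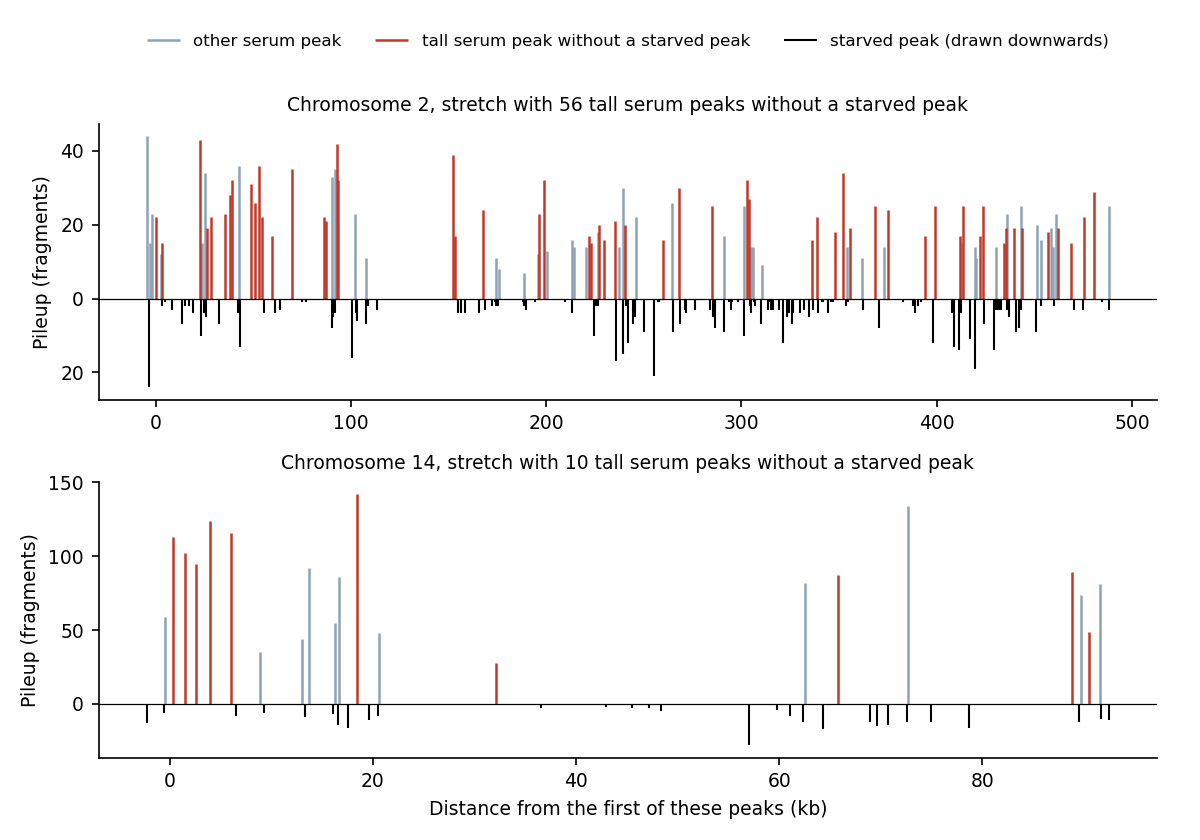
Pileup (fragments) of serum peaks, drawn upwards, and of starved peaks, drawn downwards, along a stretch of chromosome 2 with 56 members and one of chromosome 14 with 10 (distance from the first member, kb). Red lines are members, grey lines other serum peaks and black lines starved peaks. Both stretches hold starved peaks, and by the rule none of these overlaps a member.

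A few short places held tall serum peaks and 0 or 1 starved peak. On chromosome 2 from 160884619 to 160933978, 3 members with pileups of 102, 97 and 102 stood on backgrounds of 34.8 to 43.8 times the lowest. No starved peak lay within these 49.4 kb, and the distances to the nearest one were 20934, 26999 and 2222 bp. These include the largest distances of any member. On the same chromosome, from 159023943 to 159038664, all 7 tall serum peaks were members, with pileups of 29 to 120 and 1 starved peak among them. That place spans only 14.7 kb, so 1 peak amounts to 67.9 per Mb, against 145 per Mb over chromosomes 1 to 20. The nearest starved peaks of members on the highest backgrounds varied in their own background. Of the 103 members with a background above 20 times the lowest, 72 (69.9%) had a nearest starved peak above 10 times the lowest of its list and 10 (9.71%) had one under 5 times.

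The strongest members by q came from several chromosomes. The smallest q was on chromosome 15 from 22211620 to 22212078 (pileup 133, fold enrichment 4.26, −log10 q 37.2), where a starved peak of 4 fragments lay 632 bp away. Next was chromosome 19 from 5819385 to 5819771 with a pileup of 54 and a fold enrichment of 7.10, a −log10 q of 25.4 and a starved peak of 5 fragments 423 bp away. On chromosome 2 a peak from 158852235 to 158852761 had a pileup of 99 and a −log10 q of 22.0. Only 20 members had a −log10 q of at least 10, of which 18 had a raised background and 10 had a starved peak within 500 bp.

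Members at a low background were low peaks of high fold enrichment. The 87 members whose background was not raised had a median pileup of 15 (range 15 to 24) and a median fold enrichment of 5.04 (quartiles 4.61 and 5.68). A pileup of 15 or more on so low a background brings a high fold enrichment and a small q with it, in shared peaks too. A −log10 q of at least 5 was reached by 59 of the 87 (67.8%) and by 76.2% of the 600 shared tall peaks at the same background. The 87 were also longer than members in general, with a median of 500 bp (quartiles 417 and 652). Shared tall peaks at this background were likewise longer than shared ones in general, with medians of 439.5 and 410 bp. The highest fold enrichment of any member was 7.87, on chromosome 7 from 64987603 to 64988095, with a pileup of 24 on 1.45 times the lowest background. Others of this kind were chromosome 9 from 4818947 to 4819466 (fold enrichment 7.24, pileup 22) and chromosome 10 from 82660819 to 82661339 (fold enrichment 6.84, pileup 17). Chromosome 1 from 192088470 to 192088843 followed with a fold enrichment of 6.84 at a pileup of 20. Such peaks combined a modest height with a low background, in contrast to the 15 tallest. The 600 shared tall peaks at this background had a similar fold enrichment (median 5.47, quartiles 4.81 and 6.74) and a slightly greater height (median pileup 17).

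Starved peaks lay close to most members although none overlapped. The median distance from a member to the nearest starved peak was 861 bp (quartiles 336 and 2050, range 1 to 26999). Unshared serum peaks of the same length limit with a pileup under 15 had a median distance of 2424 bp (quartiles 992 and 4943). A starved peak stood within 500 bp of 539 members (34.4%), within 1 kb of 863 (55.0%) and within 10 kb of 1545 (98.5%). For all unshared serum peaks of these chromosomes the shares were 13.5%, 25.4% and 93.5%, so the last one says little about the members. The distance to a starved peak is bound up with the rule, which left out every serum peak with an overlap.

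**Figure D4:**
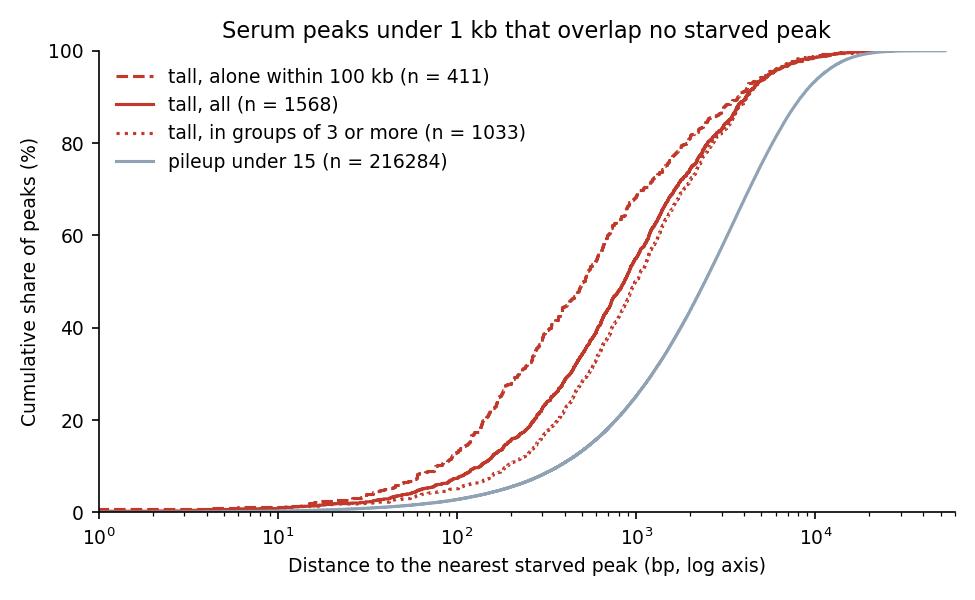
Cumulative percent of unshared serum peaks under 1 kb by distance to the nearest starved peak (bp, log axis). Red lines are members (all, those alone within 100 kb, and those in groups of 3 or more) and the grey line is unshared peaks with a pileup under 15. The curve of the members lies to the left, with medians of 861 and 2424 bp.

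The nearest starved peaks were mostly of raised background. Their median pileup was 4 (quartiles 2 and 7, range 1 to 39), against a median of 2 in the whole starved list. Of them, 275 (17.5%) consisted of 1 fragment, against 41.1% for all unshared serum peaks. A raised background in the starved list held for 1334 of them (85.1%), and over all unshared serum peaks for 15.8%. Their median background was 4.03 times the lowest (quartiles 2.55 and 7.10). Starved peaks over shared tall peaks were alike in this, with a median of 4.26 times (quartiles 2.85 and 6.03). Starved peaks that overlapped shared tall serum peaks had a median pileup of 8 (quartiles 5 and 13) and a median length of 783 bp, against 256 bp for the peaks nearest to members. Nothing is read from this contrast, since a longer starved peak overlaps a serum peak more readily. By the rule, the starved neighbour of a member lies beside it and not over it. Over the 863 members with a starved peak within 1 kb, the background multiples of member and neighbour had a Spearman rho of 0.67. This is a description over places of the same 2 libraries, and members of one stretch share starved neighbours. The starved multiple was the lower one in 68.6% of these members. The limit on serum pileup favours a high serum multiple, and this share was not computed for shared tall peaks.

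Heights were also compared at the depth of the starved list. A member's pileup divided by 15.1 gives its height at the starved depth if it kept its relative height. The height needed for a starved peak was taken as the smallest pileup whose Poisson tail probability was under 0.05 at the same multiple of the lowest background. The median scaled height of members was 1.26 fragments and the median needed height 2 fragments. The scaled height reached the needed one in 263 members (16.8%, interval 14.96 to 18.7), in 41.9% of shared tall peaks and in 1.49% of all serum peaks on these chromosomes. With the scaled height rounded to whole fragments, which lifts a pileup of 15 from 0.994 to 1, it did so in 598 members (38.1%), in 64.7% of shared peaks and in 29.9% of all serum peaks. The share of members was thus below that of shared tall peaks both ways. Without rounding, a pileup of 15 or less stays under the lowest needed height of 1. The limit on pileup therefore fixes much of the gap to all serum peaks, and nothing is read from it.

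The unrounded height stayed below the needed one in the other 1305 members (83.2%), in 58.1% of shared tall peaks and in 98.5% of all serum peaks. Of these 1305 members, 335 (25.7%) reached it once rounded. The calculation assumes that a peak keeps its relative height, and the starved peaks over shared tall peaks were higher than that, with a median pileup of 8 against a median scaled height of 1.39 for those shared peaks. The part of depth in the missing overlaps was not tested. Among tall peaks that reached it, 7.43% were unshared (interval 6.58 to 8.34), and among those that did not, 22.3% were (interval 21.2 to 23.4). All 20 members with a −log10 q of at least 10 reached the needed height. The peak with the smallest q, on chromosome 15, had a scaled height of 8.82 fragments where 5 were needed. The tallest one, on chromosome 3, had 16.6 where 13 were needed, while its neighbour from 133566275 had 15.97 where 17 were needed.

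Members gathered in stretches of chromosomes. Of the 1568 members, 1157 (73.8%, interval 71.5 to 76.0) lay within 100 kb of another member, and chaining such neighbours gave 113 groups of 3 or more with 1033 members (65.9%). A shared tall peak lay within 100 kb of 1224 members (78.1%), and of 90.5% of those in groups of 3 or more. The share of shared tall peaks within 100 kb of one another was not computed. The 15 groups of 20 or more held 473 members. The largest was on chromosome 2 from 393596 to 874661, where 56 of 69 tall serum peaks were unshared. On chromosome 7 from 349513 to 1025929 it was 51 of 81, on chromosome 1 from 38806641 to 39383839 44 of 58, and on chromosome 16 from 21675008 to 22141305 44 of 75. Neighbouring tall peaks often had the same state. The tall serum peak nearest to a member was itself unshared in 840 of 1568 (53.6%, interval 51.1 to 56.1), and that nearest to a shared peak was unshared in 695 of 7829 (8.88%, interval 8.26 to 9.53).

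The groups differed in height and background. In the chromosome 2 group the members had a median pileup of 22 and a median background of 6.46 times the lowest. The chromosome 16 group stood much higher, with a median pileup of 52.5 and a median background of 20.3 times the lowest, and its starved peaks had a median background of 14.8 times the lowest of their own list. A group of 31 members on chromosome 9 from 4014262 to 4403130 had a low median background of 3.15 times and the densest starved peaks of the 15, 398.6 per Mb, and 28 of its 31 members had a q of at most 0.05. A group of 26 on chromosome 16 from 429765 to 672031 included 26 of 32 tall peaks, with a median pileup of 19.

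Most groups of members lay where starved peaks were dense. All 15 groups of 20 or more had more starved peaks per Mb than the 145 per Mb of chromosomes 1 to 20 together, and so did 92 of the 113 groups of 3 or more. The other 21 fell below it, and 10 of all 113, none with more than 7 members, held 0 or 1 starved peak. Those 10 were short, spanning 2.74 to 49.4 kb against a median of 88.4 kb over the 113 groups. A count of 1 can thus be a high density, as on chromosome 15 from 22503301 (365 per Mb). The median over the 113 groups was 238 starved and 190 serum peaks per Mb, where chromosomes 1 to 20 had 98.9 serum peaks per Mb. Starved peaks covered a median of 7.26% of the bases of a group, against 4.40% over chromosomes 1 to 20. Stretches of shared tall peaks were not measured in this way, so these densities cannot be called particular to members. A group on chromosome 2 from 154909473 to 155103369, with 15 members, was the one of 10 or more that fell below the overall starved density, at 129 per Mb.

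Members that stood alone differed from those in groups. The 411 members with no other within 100 kb had a median pileup of 17, a median fold enrichment of 2.72 and a median background of 3.98 times the lowest. The 1033 in groups of 3 or more had 22, 2.21 and 6.15. Lone members were thus lower, on a lower background and more enriched over it. A background above 10 times the lowest held for 12 lone members (2.92%) and for 254 in groups (24.6%). The nearest starved peak was also closer to lone members, at a median of 508 bp against 993 bp. Their scaled height reached the needed one in 26.3% (interval 22.1 to 30.8), against 12.7% (interval 10.7 to 14.9) in groups.

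Windows of 1 Mb showed how uneven the distribution was. Tall serum peaks occurred in 1963 windows, and 461 of these held a member. The 36 windows with 10 or more members, picked for that number, held 803 members (51.2%). The first Mb of chromosome 2 had 83 members among 107 tall peaks, and the window of chromosome 2 from 156000001 to 157000000 had 55 among 77. Outside the 36 windows 9.55% of tall peaks were unshared.

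More members lay at the starts of chromosomes than at the ends, most of them on chromosomes 2, 7 and 16. Within the first 3 Mb of a chromosome lay 288 members (18.4%, interval 16.5 to 20.4), 4.23% of shared tall peaks (interval 3.79 to 4.70) and 2.19% of all serum peaks. Within 3 Mb of the last peak of a chromosome lay 14 members (0.893%), 2.11% of shared peaks and 2.15% of all serum peaks. Of the 619 tall serum peaks in the first 3 Mb, 46.5% (interval 42.5 to 50.5) were unshared, against 14.6% further in. Of the 15 groups of 20 or more, 6 began there, on chromosomes 2, 7 and 16, and they held 206 members. These 3 chromosomes together had 221 unshared of 354 tall peaks in their first 3 Mb (62.4%). On the other chromosomes it was 67 of 265 (25.3%, interval 20.2 to 31.0), against 13.4% further in.

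Chromosomes differed widely in the share of their tall peaks that were unshared. Chromosome 12 had the highest share, 57 of 130 (43.8%, interval 35.2 to 52.8), followed by chromosome 19 with 54 of 171 (31.6%), chromosome 7 with 189 of 687 (27.5%), chromosome 16 with 99 of 363 (27.3%) and chromosome 9 with 135 of 524 (25.8%). Chromosome 13 had the lowest share, 16 of 367 (4.36%, interval 2.51 to 6.98), next to chromosome 4 with 30 of 616 (4.87%) and chromosome 5 with 31 of 509 (6.09%). Chromosome 2 held the most members, 323, which is 20.6% of all members and 22.8% of its 1418 tall peaks.

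The range was narrower without the dense windows, which were picked for their members and so lower a share when left out. Without the 36 windows the share on chromosome 7 was 9.05% (37 of 409), on chromosome 2 10.1%, on chromosome 9 10.3% and on chromosome 16 11.6%, near the median chromosome of 10.2%. Chromosome 12 kept 22.4%, but on 49 tall peaks (interval 11.8 to 36.6), and chromosome 19 kept 22.9% of 140 (interval 16.2 to 30.7). Chromosomes 13, 4 and 5 had no such window and stayed at 4.36 to 6.09%. Background did not order the chromosomes in a simple way. The median background of the members of chromosome 12 was 5.12 times the lowest, below the 5.43 times of its shared peaks, while members of chromosome 16 were at 8.69 times and its shared peaks at 4.34.

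**Figure D5:**
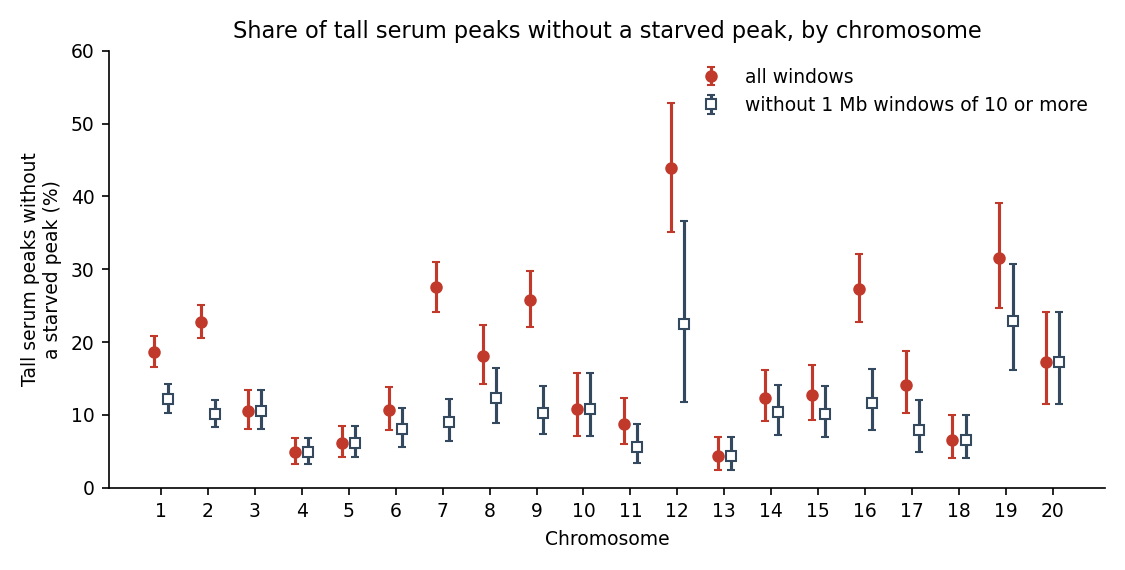
Percent of tall serum peaks that overlap no starved peak on chromosomes 1 to 20, with exact 95% binomial intervals. Filled circles use all windows, and open squares leave out the 36 windows of 1 Mb with 10 or more members. Chromosome 12 stands highest at 43.8% and chromosome 13 lowest at 4.36%, and chromosomes 2, 7, 9 and 16 drop to between 9.05% and 11.6% without the dense windows.

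The limits of the rule cut through continuous distributions. At a pileup of 15 just inside, 237 of 1115 peaks under 1000 bp were unshared (21.3%), and at 14 just outside, 398 of 1374 were (28.97%). Members at the limit with the highest fold enrichment, 6.39, lay on chromosome 3 from 36895325 to 36895942 and chromosome 14 from 30617895 to 30618438. Unshared peaks of 14 fragments at the same background had 5.99. The longest member measured 995 bp and the shortest unshared tall peak over the length limit 1002 bp, on chromosome 14 from 94910907 to 94911908. By distance, 4 members stood 1 bp from a starved peak, on chromosomes 1, 2, 15 and 18. A tall peak on chromosome 1 from 54890801 to 54891159 was shared through an overlap of 1 bp.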

How the data were processed

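Peak lists of 1 CD44 precipitation per condition were used, with no replicate. Per the submitters' processing notes, the tools were FastQC, STAR 2.5.3a and MACS2 2.1.1 on Rnor_6.0. Options, duplicate handling and library scaling were not given in the sources used here. For each peak, the authors deposited a position, a fold enrichment (a ratio with 1 added to height and background), a p-value, a q-value and a pileup signal. Read totals were not used here. Each list was placed by the prefix of its peak names, which matches the titles of its condition.

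From these values were computed the local background, (pileup + 1) / fold enrichment − 1, and the overlap and distance between lists. With this background the Poisson tail equalled the deposited p-values within 0.05 (log10) for 100% of peaks of both lists. The overlap, distance, grouping and needed-height steps were tested on simulated data. The software was scipy 1.17.1, numpy 2.4.6, pandas 2.3.3 and matplotlib 3.10.9 under Python 3.11.15.

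The members, limits and lists were chosen with earlier results of these data known. Regions were named by rank of pileup, fold enrichment, q, length, background and distance, as those next to each limit, and as groups of 3 or more, of which only the largest and those that hold a peak of extreme rank are named. The 36 dense windows, the 3 Mb at chromosome ends (and chromosomes 2, 7 and 16 there), the scaled heights, the classes of height, background and q, and the chromosome 2 places from 159023943 and 154909473 were chosen after seeing the values. Gene annotation and sequence of Rnor_6.0 were not used here, so no gene, promoter or motif is given and the 4 gene lists drawn up went unused. The alternatives are in the closing section.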

Additional observations from a re-analysis of the deposited data

How the results depend on the processing

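No paired analysis was possible because neither condition has more than 1 precipitated library, and leaving out replicates was likewise not possible. The results were the number of members (1568), their share of tall peaks (16.7%), their median background (5.32 times the lowest), the share with a starved peak within 10 kb (98.5%) and the share within 100 kb of another (73.8%). With no limit on length, or with X added, all 5 stayed within their intervals or within 1.5 times. At a pileup of at least 12 they were 3680, 24.9%, 2.90 times, 96.6% and 59.2%. At a pileup of at least 20 the first 3 were 777, 14.7% and 8.33 times, and 79.8% lay within 100 kb. Counting a starved peak within 500 bp as a counterpart gave 1029 members, 10.95% and 97.8%. Requiring an overlap of 50% of both peaks gave 5968 members, 63.5%, 4.34 times and 99.6%. Short serum peaks that lie inside long starved ones then count as unshared. Such members have a starved peak at a distance of 0, so the 99.6% follows largely from the setting. With starved peaks of q at most 0.05 only, there were 2210 members, with 23.5%, 4.73 times and 67.1% within 100 kb. A −log10 q of 5 or more left 164 members, with 6.33%, 2.93 times and 32.3% within 100 kb. Leaving out raised backgrounds left 87 members, with 12.7%, 1.58 times, 95.4% and 13.8%. Without the 36 dense windows, chosen after seeing the data, there were 765, with 9.55%, 4.43 times and 48.4%. The cause of these shifts was not tested, and with fewer members fewer can neighbour each other. Of 40 other values, 20 moved beyond their limits. Of the 15 tallest members, 12 remained with the 500 bp rule, 6 at a −log10 q of 5 or more, 0 without raised backgrounds and 9 without the dense windows, and all 15 under the other alternatives.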

Other observations

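On the X chromosome, which the rule left out, 52 of 755 tall serum peaks under 1000 bp overlapped no starved peak (6.89%). Among the 627 tall serum peaks of 1000 bp or more on chromosomes 1 to 20, 80 overlapped none (12.8%, exact 95% binomial interval 10.2 to 15.6).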
